A study of Bos taurus with 38 samples.

Results

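SMAD6 (ENSBTAG00000000625), SMAD7 (ENSBTAG00000012441), BAMBI (ENSBTAG00000003045) and FST (ENSBTAG00000003329) were examined as a set of BMP and activin inhibitors, 4 of the 27607 genes in the count tables. The bone morphogenetic proteins (BMPs) and activins are secreted ligands of the TGF-beta superfamily. They bind pairs of serine-threonine kinase receptors, which phosphorylate receptor SMAD proteins that enter the nucleus together with SMAD4. SMAD6 and SMAD7 are inhibitory SMADs that act inside the cell, SMAD6 mainly on the BMP branch and SMAD7 on both branches. BAMBI is a membrane pseudoreceptor without a kinase domain, and FST (follistatin) is a secreted protein that binds activin and, less tightly, some BMPs. In the ovarian follicle, granulosa and cumulus cells produce the inhibin and activin subunits, and the oocyte secretes BMP15 and GDF9.

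The libraries came from individual cattle cumulus-oocyte complexes aspirated from ovaries collected at an abattoir and stained with brilliant cresyl blue (BCB), a dye that glucose-6-phosphate dehydrogenase turns colorless. An oocyte that stayed blue made its complex BCB positive, and an oocyte that lost the color made it BCB negative. The oocyte and the cumulus cells of each complex were sequenced apart, which gave 9 BCB positive and 10 BCB negative oocyte libraries and as many cumulus libraries. The sources used here do not tie complexes to animals, so a p-value measures the spread between complexes.

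SMAD6, SMAD7 and BAMBI were chosen because they stood out between BCB classes in these cumulus libraries, and FST because many of its correlations between oocyte and cumulus genes were high. Their cumulus BCB values are therefore a description, without a p-value, for the first 3 genes. The oocyte values of FST entered its choice, so a p-value that uses them is not that of a gene chosen without them. The complexes are numbered in 3 runs: 6 to 24 (3 BCB positive, 1 BCB negative), 65 to 74 (6 BCB positive, 3 BCB negative) and 86 to 91 (6 BCB negative), and the labels do not say what a run was.

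Oocyte libraries held 8886070 to 29810354 counts. Cumulus libraries held 3585944 to 10430148 counts in the BCB positive class and 1103200 to 8013318 in the BCB negative class, and the mitochondrial share had a median of 1.38% and 7.59%. Of 10 cumulus and granulosa markers all had counts in every cumulus library but that of complex 6, where AMHR2 was at 0 (summed CPM of 4230 to 24796, where CPM is the count scaled to 1e6 counts in the library), and the 2 oocyte markers that could be matched to a symbol, ZP2 and ZP3, summed to 2713 to 5051 CPM in oocytes. In cumulus libraries they summed to 0 to 1.37 CPM in the BCB positive class and 0.259 to 65.3 CPM in the BCB negative class. Of the theca and endothelial lists only STAR and VWF were matched (1.64 to 30.2 and 0.462 to 16.3 CPM in cumulus libraries, with more in oocytes), and no blood marker was matched. The cumulus libraries of complexes 6 and 89, both BCB negative, stood apart: for 5 of the 10 cumulus markers (CYP19A1, INHA, INHBA, AMHR2 and NR5A2) they were the lowest pair of the 19. INHBA, the activin beta A subunit, stood at 64.3 and 185 CPM there and at 485 to 10069 CPM in the other 17, while KRT18, a keratin on the same marker list, stood at 99.3 and 183 CPM against 0.529 to 43.2 CPM. Other markers of the list were not low there: GATM ranked 17 and 19 from the lowest (155 and 329 CPM) and SERPINE2 10 and 15. Both complexes were singled out after the values of the inhibitors had been seen, and the main results that rest on them are given with and without them.

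SMAD6, the BMP-branch inhibitory SMAD, varied less among oocytes than among cumulus libraries. In oocytes it ran from 16.3 CPM through a median of 18.9 to 29.2 in the BCB positive class and from 13.8 through 18.5 to 23.2 in the BCB negative class, so the classes overlapped almost entirely. In cumulus cells the lowest, median and highest levels were 16.96, 45.8 and 84.6 CPM in the BCB positive class and 44.2, 94.2 and 151 CPM in the BCB negative class. Of the 10 BCB negative cumulus libraries, 7 lay above the highest BCB positive one, and complexes 88, 89 and 90 (52.0, 44.2 and 53.7 CPM) lay among the BCB positive ones. The SD of log2(CPM + 1), scaled by the trimmed mean of M-values (TMM), was 0.21 for SMAD6 in oocytes, lower than for most genes (16.4% of genes had a lower SD). It was 1.13 in cumulus cells, a value that holds the class difference by which the gene was chosen.

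SMAD7, which restrains both branches, was close to the limit of detection in oocytes. Oocyte levels were 0.229, 0.788 and 2.69 CPM (lowest, median, highest) in the BCB positive class and 0.570, 1.13 and 1.94 CPM in the BCB negative class, from 3 to 55 counts. A single oocyte library passed 2 CPM, so SMAD7 failed the filter of CPM above 2 in at least 9 libraries. In cumulus cells its levels were 0.188, 1.64 and 4.78 CPM in the BCB positive class, where 2 libraries passed 2 CPM. In the BCB negative class they were 0.906, 3.89 and 15.97 CPM, with 8 libraries past 2 CPM, so that the gene passed the filter mostly through that class. The lowest value of each class rested on 1 count. The 2 highest libraries were complexes 89 (15.97 CPM) and 6 (10.7 CPM).

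BAMBI, the pseudoreceptor, had an even level in oocytes, from 8.89 CPM through a median of 11.5 to 14.4 in the BCB positive class and from 6.47 through 10.00 to 12.3 in the BCB negative class. In cumulus cells most libraries held less, with 0.837, 3.18 and 7.54 CPM in the BCB positive class. The BCB negative class had 1.21, 6.66 and 110 CPM, and 4 of its 10 libraries lay above the 7.54 CPM of the highest BCB positive one. Complexes 89 (110 CPM, 878 counts) and 6 (67.2 CPM, 119 counts) were far above the rest. Complexes 90 and 91 exceeded the highest BCB positive library by less. How many libraries lay above it depended on the scaling. On the TMM scale that library held 6.32 CPM, below complexes 6, 89, 90 (11.1 CPM) and 91. Complexes 68, 86 and 87 (8.43, 6.94 and 7.02 CPM) lay above it on that scale too. Complexes 65, 66 and 88 (1.73, 6.11 and 6.27 CPM) lay below it. On library totals and without complexes 6 and 89 the BCB negative median was 6.02 CPM.

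FST showed the opposite layout, steady in cumulus cells and scattered over a wide range in oocytes. Cumulus levels were 3817, 5884 and 7106 CPM in the BCB positive class and 1582, 3681 and 5195 CPM in the BCB negative class on library totals, and complexes 6 and 89 held the lowest 2 values. On the TMM scale the classes came closer, with medians of 4877 and 4498 CPM. In oocytes FST ran from 0.0684 through 21.9 to 688 CPM in the BCB positive class and from 0 through 1.54 to 227 CPM in the BCB negative class. The oocyte of complex 68 had 0 counts, which allows a level of up to 0.319 CPM (3 counts, counting error only). The SD of log2(CPM + 1) for FST in oocytes was 2.97, above that of 99.98% of the genes tested there. It rests on the oocyte values that entered the choice of the gene.

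**Figure D1:**
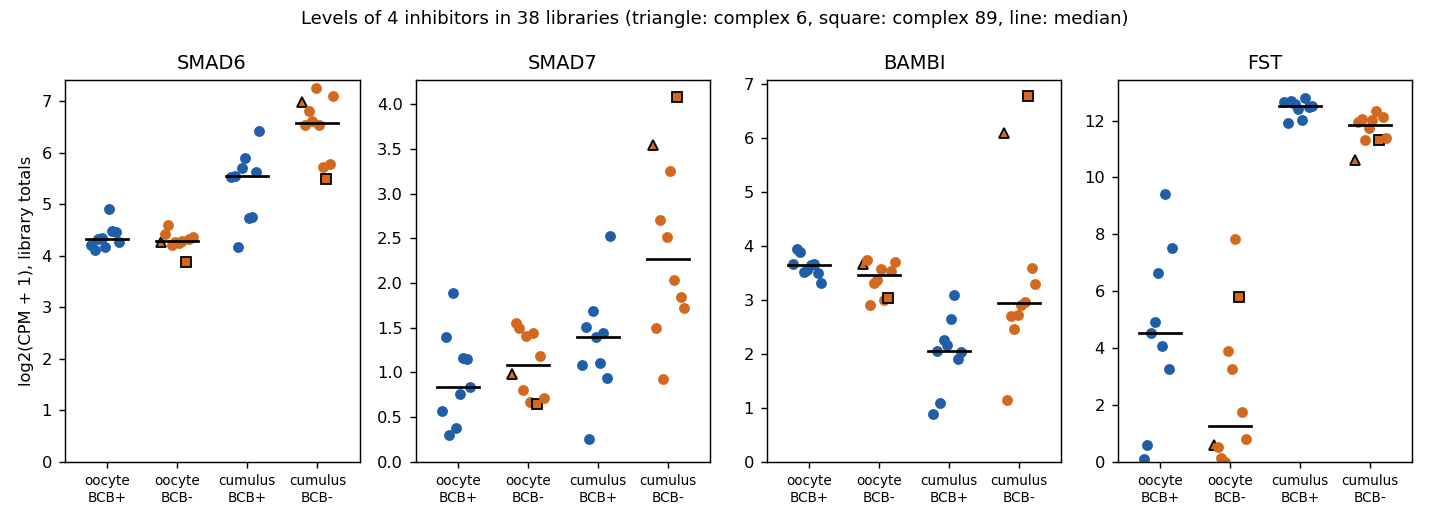
Level of each inhibitor as log2(CPM + 1) on library totals in the 38 libraries, by compartment and BCB class; each symbol is 1 library, a triangle marks complex 6, a square complex 89, and the bar is the median. The oocyte points of SMAD6 and BAMBI sit in narrow bands, the oocyte points of FST spread from 0 to 688 CPM, and complexes 6 and 89 hold the 2 highest BAMBI and SMAD7 values in cumulus cells.

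The first comparison asked whether the class of the complex shows in the oocyte. For none of the inhibitors did the difference between BCB positive and BCB negative oocytes pass the threshold. Positive minus negative, the fitted log2 difference was 0.09 ± 0.12 (SE) for SMAD6 (adjusted p = 0.946, edgeR quasi-likelihood test with Benjamini-Hochberg adjustment over 12753 genes), with a 95% interval of -0.14 to 0.33. For BAMBI it was 0.26 ± 0.15 (adjusted p = 0.888, interval -0.04 to 0.55). For FST it was 1.91 ± 1.36 (adjusted p = 0.908), and the interval of -0.75 to 4.57 spans both directions. With the run of complex numbers as a covariate the FST difference was 8.25 (adjusted p = 0.264). SMAD7, which was not fitted, differed by -0.15 in mean log2(CPM + 1) (p = 0.455, two-sided exact permutation test over 92378 splits, an alternative added after seeing the data). In the same fit 0 genes passed an adjusted p of 0.01 (0%), 711 had an unadjusted p under 0.05, and DESeq2 called 1 gene.

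In cumulus cells, the contrast on which SMAD6, SMAD7 and BAMBI were chosen, all 3 were lower in the BCB positive class. The log2 difference, positive minus negative, was -1.70 ± 0.33 (SE) for SMAD6, -2.15 ± 0.45 for SMAD7 and -3.07 ± 0.67 for BAMBI. A cumulus library is a bulk sample, so fewer cells with the RNA and less RNA per cell cannot be told apart. Of the 12313 genes tested, 69 (0.56%) were called at an adjusted p of 0.01, 64 (0.52%) of them higher in BCB negative and 5 (0.0406%) higher in BCB positive. FST, which was not chosen on this contrast, differed by 0.21 ± 0.18 (adjusted p = 0.562, edgeR). With library totals in place of TMM the median of all genes moved by 0.47 toward BCB positive, 1732 genes were called, and the part of the calls that was higher in BCB positive went from 7.25% to 94.1%. FST then differed by 0.72 (adjusted p = 0.00978), while SMAD6, SMAD7 and BAMBI stayed lower in BCB positive at -1.09, -1.73 and -2.70.

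The size of the cumulus difference depended on library total for SMAD6 and on complexes 6 and 89 for BAMBI. With log10 of the library total as a covariate, SMAD6 differed by -0.70, SMAD7 by -2.45 and BAMBI by -3.83, and 2 genes were called. Without complex 89 alone BAMBI differed by -2.44. Without complexes 6 and 89 the differences were -1.76 for SMAD6, -1.62 for SMAD7, -1.37 for BAMBI and 0.04 for FST (adjusted p = 0.927). With the run as a covariate and without the same 2 complexes they were -1.85, -1.18 and -0.53, and FST turned to -0.10 (adjusted p = 0.881). Among the 9 complexes of the run from 65 to 74, which lacks both, SMAD6 was 25.5 to 84.6 CPM in 6 BCB positive and 91.5 to 111 CPM in 3 BCB negative cumulus libraries, so these groups did not overlap. SMAD6 was chosen on cumulus values that include these, and how many of all genes separate likewise in this run was not counted. SMAD7 and BAMBI overlapped there: SMAD7 was 0.912 to 4.78 CPM against 0.906 to 5.54 CPM, and BAMBI was 2.74 to 7.54 CPM against 1.21 to 5.54 CPM.

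**Figure D2:**
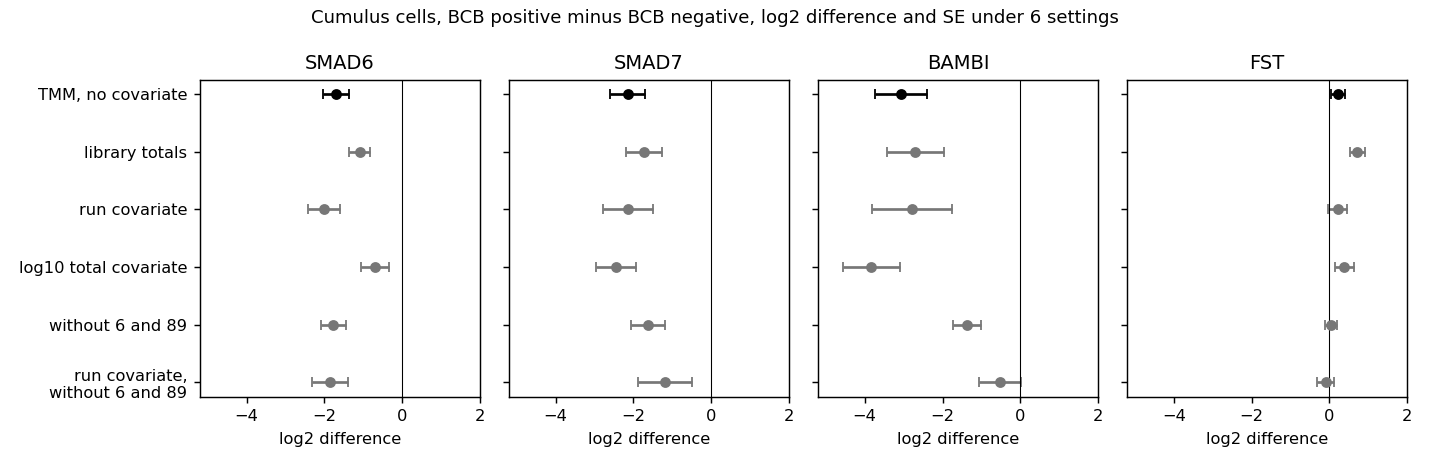
Log2 difference of each inhibitor in cumulus cells, BCB positive minus BCB negative, with its SE, under 6 settings named on the vertical axis; black is the main fit and the vertical line marks no difference. SMAD6 shrinks from -1.70 to -0.70 once library total is a covariate, and BAMBI shrinks from -3.07 to -1.37 without complexes 6 and 89.

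SMAD6 in cumulus cells moved with the depth of the library. Over 19 complexes the log10 library total and the log2(CPM + 1) level of SMAD6 had r = -0.820 and rho = -0.746, given without a p because both classes enter and the class difference chose the gene. With the pair of libraries most distant from the median total removed, r was -0.785. Within the BCB negative class r was -0.878 (permutation p = 0.00088) and rho -0.636 (p = 0.0536), while the BCB positive class alone gave -0.240 for r and -0.217 for rho (p = 0.53 and 0.581, all permutations enumerated, exact). These within-class p-values were not adjusted. Over 19 complexes r was -0.294 for SMAD7, -0.145 for BAMBI and 0.011 for FST. BAMBI ran the other way within the BCB positive class, at r = 0.700 and rho = 0.850 (exact permutation p = 0.0349 and 0.00607), and had r = 0.368 in the BCB negative class (permutation p = 0.303). Of the 10 BCB negative cumulus libraries, 6 had a lower total than any BCB positive one.

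Among the inhibitors, cumulus levels of BAMBI and FST ran in opposite directions, with complexes 6 and 89 at the end of the range. With all 19 complexes r was -0.795 and rho was -0.602. Those 2 complexes were also the farthest from the median, and without them r was -0.335 and rho -0.446. SMAD7 and FST likewise had r = -0.610 over 19 complexes and -0.139 without complexes 6 and 89. SMAD7 and BAMBI, both chosen for a BCB difference in the same direction, had r = 0.791 over 19 complexes and 0.562 (rho = 0.556) over the 17 without complexes 6 and 89. Within the BCB negative class, which holds both, their r was 0.710 and rho 0.455. Complexes 65 to 74 gave r = 0.088, and the BCB positive class 0.372. These values of SMAD7 and BAMBI have no p, since the cumulus levels chose both genes and complexes 6 and 89 were singled out on them. SMAD6 and SMAD7 had r = 0.759 but rho = 0.450 within the BCB positive class (exact permutation p = 0.0153 and 0.230), where complex 74 held the highest SMAD7 level. Within the BCB negative class they had r = -0.157 and rho = -0.248 (permutation p = 0.657 and 0.493, not adjusted).

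**Figure D3:**
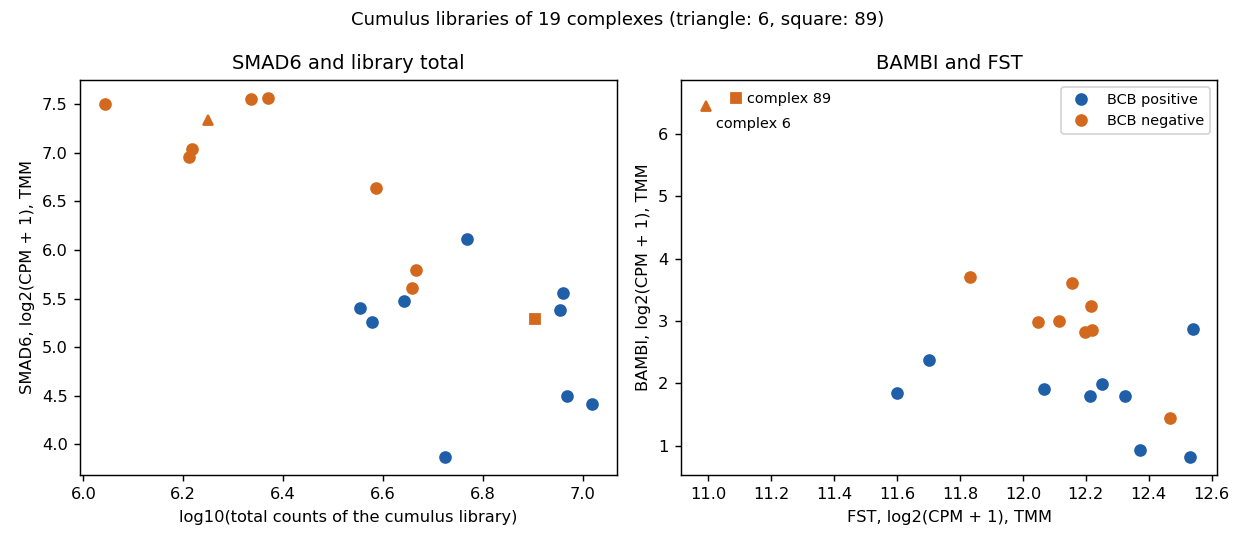
Cumulus libraries of 19 complexes on the TMM scale: SMAD6 as log2(CPM + 1) against log10 of the total counts (left), and BAMBI against FST, both as log2(CPM + 1) (right); colors give the BCB class, a triangle complex 6 and a square complex 89. SMAD6 falls along the range of totals (r = -0.820), and complexes 6 and 89 sit alone at high BAMBI and low FST.

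SMAD6 and FST were lower in oocytes than in cumulus cells. In the same fit 88.4% of 14898 genes were called, 46.2% higher in oocytes and 42.2% higher in cumulus cells, so a call by itself sets no gene apart. SMAD6 was lower in oocytes, with a log2 difference (oocyte minus cumulus) of -2.23 ± 0.18 (4.70-fold, adjusted p = 7.0e-15, edgeR), and the cumulus library was the higher one in 17 of 19 complexes. The fit did not pair the 2 libraries of a complex. With the complex as a block the SMAD6 difference was -2.09 (adjusted p = 2.83e-10, edgeR). The fitted difference of SMAD7, which passed 2 CPM in 1 oocyte and 10 cumulus libraries and so entered the fit through the compartment where it was higher, was -1.90 ± 0.31, given without a p, and its cumulus library was the higher one in 15 of 19 complexes. FST was lower at -6.60 ± 0.91 (96.9-fold, adjusted p = 2.43e-08, 19 of 19 complexes), and the cumulus-to-oocyte ratio of CPM ran from 10.3 to 94352 in the 18 complexes with an oocyte count. The size of the FST difference was not firm: it was -7.29 without complex 72, -7.45 without complex 88, -5.02 with DESeq2 and -9.54 with the complex as a block. With library totals the median of all genes moved by 0.40 toward oocytes, and the 3 differences were -1.76, -1.53 and -6.22. By class, the SMAD6 difference was -1.36 in BCB positive and -3.09 in BCB negative complexes alone, and the FST difference -5.76 and -7.42.

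BAMBI had no single direction between compartments. Over all complexes its difference, oocyte minus cumulus, was -0.14 ± 0.32 (adjusted p = 0.669), although the oocyte held more in 16 of 19 complexes. It turned positive, at 0.04 and 0.21, when complex 6 or complex 89 alone was left out. It was also 0.21 with library totals and 0.45 with the complex as a block (adjusted p = 0.552 and 0.164). Among BCB positive complexes alone the BAMBI difference was 1.51 (1.69 with library totals), with the oocyte library higher in 9 of 9 complexes. Among BCB negative complexes alone it was -1.81 (-1.27 with library totals), though the cumulus library was higher in only 3 of 10 complexes. Without complexes 6 and 89 it was -0.004 in the BCB negative class and 0.71 over both classes, given without a p because the 2 complexes were singled out after their BAMBI values had been seen. In the fits of 1 class 84.6% and 81.1% of genes were called. The values within a class, and the difference between classes, have no p because they hold the cumulus values that chose the gene. SMAD7 among BCB positive complexes alone was at -0.93.

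**Figure D4:**
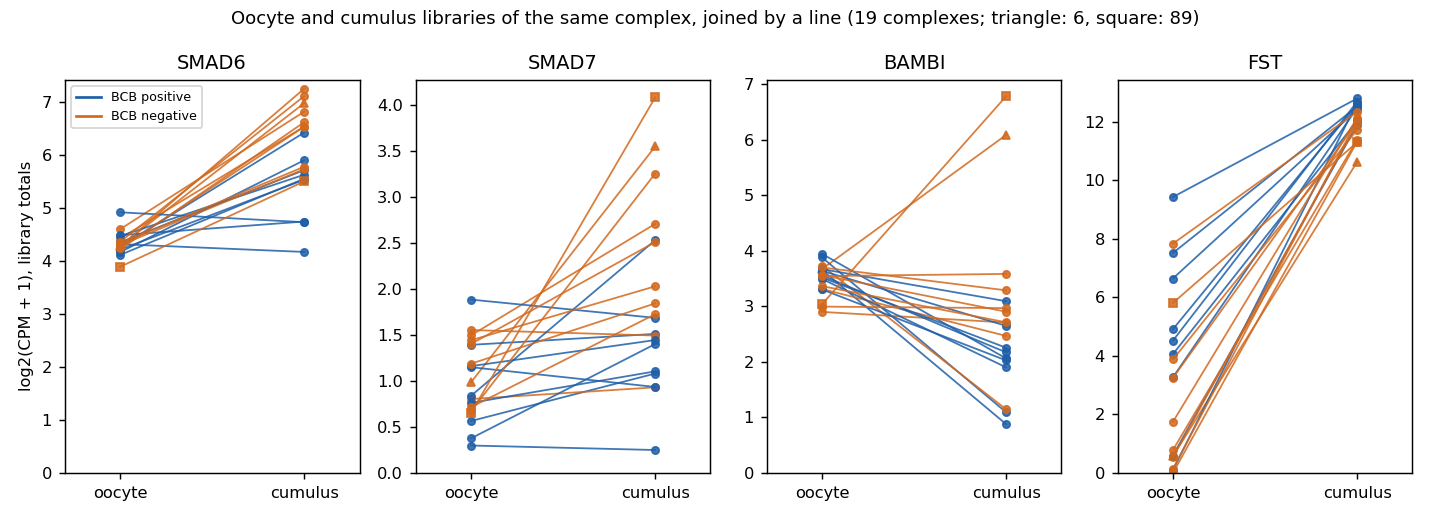
Each inhibitor as log2(CPM + 1) on library totals in the oocyte and the cumulus cells of the same complex, joined by a line for each of 19 complexes; colors give the BCB class, a triangle complex 6 and a square complex 89. BAMBI lines fall from oocyte to cumulus in 16 of 19 complexes, with complexes 6 and 89 rising steeply, and FST lines rise in 19 of 19.

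FST in oocytes rose with cumulus markers found in the same oocyte library. The 10 cumulus markers, which do not include FST, summed to 65.3 to 2390 CPM in oocyte libraries. The sum is weighted toward its abundant members. In BCB positive oocytes SERPINE2, INHA and INHBA reached 666, 755 and 822 CPM, while GATM and KRT18 reached 3.64 and 0.612 CPM. In the oocyte of complex 6 SERPINE2 made up 89.4 of 105 CPM. The log2 sum and FST had r = 0.886 and rho = 0.937. Both gave a permutation p of 1e-05, which is as low as 100000 permutations go (adjusted p = 0.00024 over 24 relations). These p-values, and those for FST within classes and runs, rest on the oocyte values that entered its choice. The relation was also there within each class, with r = 0.902 among BCB positive complexes (all permutations enumerated, p = 8.27e-06) and 0.895 among BCB negative complexes (permutation p = 0.0002). In the run from 65 to 74 r was 0.900, and among complexes 86 to 91 it was 0.913 (p = 3.31e-05 and 0.00278 by enumerating every permutation). Leaving out the 2 oocytes at the greatest distance from the median marker sum gave r = 0.891. For SMAD6 (r = -0.070), SMAD7 (r = 0.009) and BAMBI (r = -0.195) the relation over 19 complexes did not pass (adjusted p = 0.818, 0.972 and 0.792). Within the BCB negative class SMAD6 had r = -0.395 and rho = -0.842 (permutation p = 0.22 and 0.00392) and BAMBI r = -0.580 and rho = -0.394 (permutation p = 0.0478 and 0.261). Among complexes 86 to 91 BAMBI had r = -0.839 and rho = -0.829 (exact permutation p = 0.00972 and 0.0583). Among complexes 65 to 74 it had r = 0.199 and rho = -0.05 (exact permutation p = 0.563 and 0.912). These p-values within classes and runs were not adjusted.

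Set against the cumulus cells of its own complex, the oocyte of complex 72 held FST at 9.68% of the cumulus level. INHA, the inhibin alpha subunit, stood at 10.3% there, INHBA at 8.16%, and FSHR, the follicle-stimulating hormone receptor, at 9.96%. The oocyte of complex 88 held FST at 4.37%, INHA at 3.52%, INHBA at 4.19% and FSHR at 2.73%. FST passed 1% in 5 complexes (70, 72, 74, 88 and 89, 3 of them BCB positive), and in these its share was 0.833 to 1.18 times that of INHA, INHBA and FSHR summed, against 0 to 1.18 times over all 19 complexes. The share of FOXL2, a granulosa transcription factor gene, was above that of FST in 4 of these 5 complexes, by most in 88 (10.7%) and 74 (6.68% against 3.09%), and in 14 of all 19. Shares were not taken for the whole marker list, and others of it differed more. In complex 89, where FST stood at 2.18%, CYP19A1 was at 6.54 CPM in the oocyte and 12.5 CPM in cumulus cells. KRT18 was at 0.201 and 183 CPM there, and GATM at 2.38 and 329 CPM. In complex 6 CYP19A1 was at 4.83 and 5.08 CPM, with FST at 0.0309%. The median share over 19 complexes was 0.208% for FST, 31.2% for SMAD6 and 197% for BAMBI. Whether FST RNA in these oocyte libraries came from the oocyte was not tested.

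**Figure D5:**
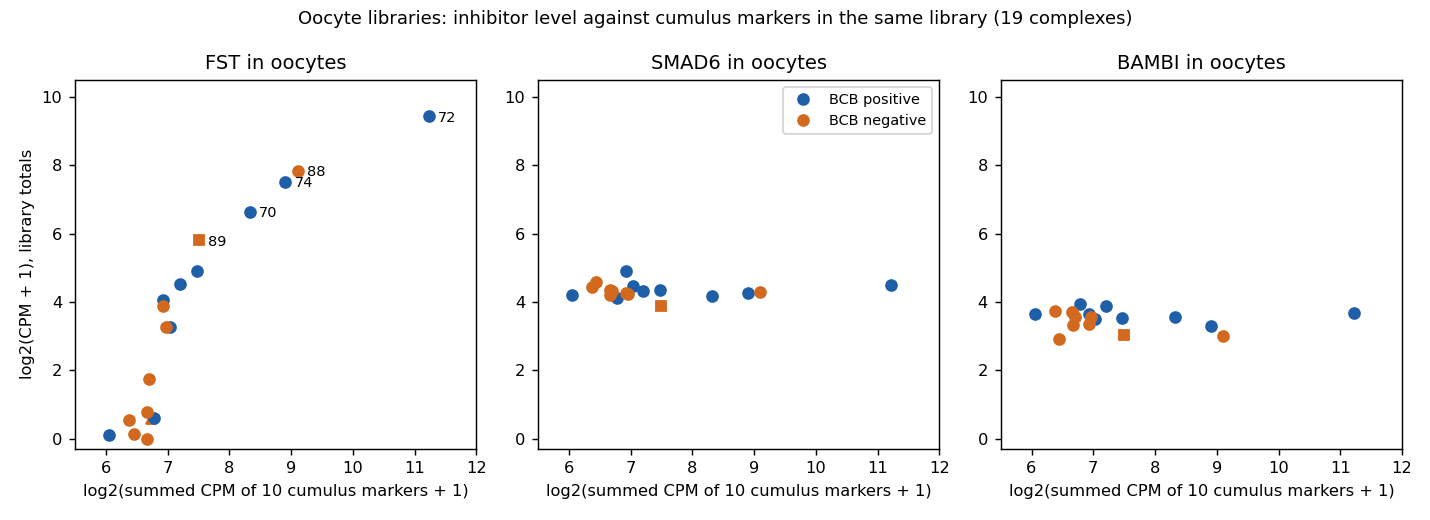
Oocyte libraries of 19 complexes: level of FST, SMAD6 and BAMBI as log2(CPM + 1) on library totals against log2 of the summed CPM of 10 cumulus markers plus 1; colors give the BCB class and numbers name the 5 complexes in which FST passed 1% of its cumulus level. FST climbs with the markers (r = 0.886 on the TMM scale), and SMAD6 and BAMBI stay within narrow bands.

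By run, FST in oocytes was 0.0684 to 21.9 CPM in the 4 complexes from 6 to 24, 0 to 688 CPM in the 9 from 65 to 74 and 0.721 to 227 CPM in the 6 from 86 to 91. Runs were compared within a model that held the BCB class. FST did not pass the threshold (adjusted p = 0.063, edgeR), nor did SMAD6 (0.299) or BAMBI (0.323), with 272 genes (2.13%) called. In cumulus cells the adjusted p for run was 0.681 for SMAD6, 1.00 for SMAD7, 0.881 for BAMBI and 0.711 for FST, with 87 genes (0.707%) called. Inside the run from 65 to 74 the 6 BCB positive oocytes held FST at 8.62 to 688 CPM and the 3 BCB negative oocytes at 0 to 0.447 CPM, without overlap. The difference in mean log2(CPM + 1) was 5.73 (two-sided exact permutation test, p = 0.0119, as low as 84 splits can reach, adjusted p = 0.0595 over 5 comparisons). How many of all genes separate without overlap in this run was not counted. The summed cumulus markers were 121 to 2390 CPM in those 6 oocytes and 81.9 to 100.5 CPM in those 3. In the same run SMAD6, SMAD7 and BAMBI in oocytes differed by -0.03, -0.29 and 0.16 (exact permutation p = 0.905, 0.417 and 0.429), and FST in cumulus cells by -0.11 (p = 0.56). On library totals that FST difference turned to 0.69 (exact permutation p = 0.0238), with 4192 to 7106 CPM in BCB positive and 2560 to 4262 CPM in BCB negative. The difference of the FST BCB contrast between oocytes and cumulus cells was 1.69 ± 1.43 (adjusted p = 0.604), in a fit that called 258 genes (1.73%). Its size was not firm either: it was 0.31 without complex 72, 3.40 without complex 88 and 2.83 with the complex as a block (adjusted p = 0.969, 0.142 and 0.494).

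Among genes with a symbol, FST in oocytes was most like VIM (vimentin, r = 0.990), INHA (0.987) and SRGN (serglycin, 0.983) over 19 libraries. SMAD6 was most like MYT1L and ADPRM in both compartments, with r = 0.904 and 0.845 in oocytes and 0.942 and 0.937 in cumulus cells. The chloride transporter gene CLCN4 (0.934) came next in cumulus cells, and the death-domain adaptor FADD (0.779) in oocytes. BAMBI was nearest to PRR14, TBL3 and GGA2 in oocytes (0.818, 0.814 and 0.812) and in cumulus cells was close to SOX4 and TNFRSF12A (0.907 and 0.891), which were at 0.660 and 0.690 without complexes 6 and 89. In cumulus cells SMAD7 was nearest to TMSB4, CD55 and MAGI1 (0.869, 0.824 and 0.819), which were at 0.782, 0.662 and 0.688 without complexes 6 and 89. FST in cumulus cells was nearest to CITED1, KLK1 and CRISPLD2 (0.916, 0.909 and 0.907), which were at 0.726, 0.719 and 0.728 without them. These coefficients share library depth and are a description.

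Of 60 other genes listed for the pathway, 14 could be matched to a symbol, and those symbols come from tables ranked on these same data, so the 14 are not a neutral sample. In oocytes 13 of the 14 were tested between BCB classes and 0 were called, as over all genes (0%). In cumulus cells 1 of the 10 that were tested was called, where 0.56% of all genes were: BMPR1B, a BMP type I receptor, at 11.7 ± 4.61 CPM (SD, n = 9) in BCB positive and 30.9 ± 22.9 CPM (n = 10) in BCB negative, was lower in BCB positive with a log2 difference of -1.88 ± 0.37 (adjusted p = 0.00822). Its 3 highest libraries were complexes 6, 89 and 87 (64.3, 62.1 and 59.4 CPM), all BCB negative, and the remaining BCB negative libraries held 7.27 to 32.9 CPM against 3.55 to 19.4 CPM in BCB positive. The call held in 5 of 10 alternatives chosen after it was seen. The difference was -1.50 without complexes 6 and 89 (adjusted p = 0.0139), -1.59 with the run as a covariate (0.070) and -0.77 with both (0.503), and with 1 complex left out it passed the threshold in 4 of 19 fits (adjusted p = 0.00573 to 0.0217).

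Between compartments 13 of the 14 were called, 5 higher in oocytes and 8 higher in cumulus cells, near the 88.4% called over all genes (46.2% and 42.2%). BMP7, ENG, MSX2 and SMAD9 did not pass the filter in cumulus cells and AMHR2 did not in oocytes, so these 5 entered the fit through the compartment where they were higher. The ligand gene BMP7 (5.67), the receptor BMPR1B (2.93), the co-receptor ENG (1.29) and the homeobox genes MSX1 (7.52) and MSX2 (7.43), which BMP signaling induces, were higher in oocytes by the log2 differences given. The 6 largest differences toward cumulus cells were those of the inhibin and activin subunits INHA (-6.39) and INHBA (-6.77), the anti-Mullerian hormone receptor AMHR2 (-4.41), the shared SMAD4 (-3.24), the secreted BMP-binding protein TWSG1 (-5.66) and the target gene ID2 (-5.19). SMAD9, a receptor SMAD of the BMP branch named here because it was the 1 that was not called, differed by 0.57 (adjusted p = 0.171), with the same limit of the filter.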

How the data were processed

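The authors aligned reads with HISAT2 2.1.0 to ARS-UCD1.2, removed duplicates and deposited raw counts per Ensembl gene from featureCounts 1.6.0, without normalization, in 1 table per compartment (27607 genes, 19 libraries each). Libraries were primed with oligo-dT, extended by template switching and unstranded, so an overlapping antisense gene cannot be told apart. Duplicate removal can lower counts of abundant genes.

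Here counts were scaled by TMM factors and tested with edgeR 4.0.16 (quasi-likelihood, robust, R 4.3.3), keeping genes above 2 CPM in at least 9 libraries, with a Benjamini-Hochberg adjusted p of 0.01 as the threshold. This kept 12753 genes in oocytes, 12313 in cumulus cells and 14898 over all 38 libraries. The members and lists were chosen with earlier results of these data known. The named genes were the 4 inhibitors, the 3 genes with a symbol nearest to each by Pearson's r, and called genes of the pathway list (at most 6 per direction). One of the nearest genes is not reported here. Symbols for 4934 gene IDs came from tables of the study. No gene length was used, so levels are compared within a gene, and CPM refers to library totals unless TMM is named. Relations used log2(CPM + 1) with TMM factors and 100000 permutations (all permutations under 10 complexes), in scipy 1.17.1. On simulated data, 98.5%, 92% and 97.5% of 200 genes changed 4-fold were recovered in the oocyte BCB, cumulus BCB and compartment comparisons, and 87% and 69.5% in the oocyte and cumulus comparisons of runs. Apart from these changes each simulated gene had 1 mean in all libraries, so other differences between compartments or classes were absent. The rates are over genes drawn at random and do not give the recovery of a gene as variable as FST in oocytes. No library pair was a copy (highest r between libraries 0.985).

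The labels give the oocyte and the cumulus cells of 1 complex the same number, so the numbers pair the libraries. The deviations of same-numbered libraries from their class means had r from -0.019 to 0.215 (median 0.076), over 0.1 in 5 of 19 complexes. The alternatives were library totals, DESeq2 1.42.0, other filters, covariates for run and library total, a block by complex, and leaving out each complex in turn or complexes 6 and 89 together.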

Additional observations from a re-analysis of the deposited data

Results flagged for a closer look

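In 4 of the 16 combinations of inhibitor, compartment and BCB class, 1 library lay far from the rest by Dixon's ratio, which chance gives in about 1 of 20 groups of normally distributed values. The FST levels in oocytes are skewed on the CPM scale used for this ratio, and the rate for such values was not measured. In BCB positive oocytes SMAD6 of complex 71 stood at 29.2 CPM against 21.4 CPM in the next library. In BCB positive cumulus cells SMAD7 of complex 74 stood at 4.78 CPM (28 counts) against 2.22 CPM. FST in oocytes had 1 such library in each class: complex 72 at 688 CPM against 182 CPM among BCB positive oocytes, and complex 88 at 227 CPM against 55.0 CPM among BCB negative oocytes. The BCB difference of FST in oocytes, 1.91, was 0.55 without complex 72 and 3.63 without complex 88, and passed the threshold in neither case. The same 2 oocyte libraries held the highest sums of the 10 cumulus markers, at 2390 and 550 CPM.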

How the results depend on the processing

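For the cumulus BCB difference, the number of called genes, 69, was 1732 with library totals, 365 with DESeq2, 164 without a filter, 115 with the run as a covariate, 2 with log10 total as a covariate, 146 without complexes 6 and 89, and 106 without them and with the run as a covariate; leaving out 1 complex gave 6 (complex 24) to 160 (complex 89). There SMAD6 moved to -0.70 with log10 total, BAMBI to -1.37 without complexes 6 and 89, and with the run as a covariate as well SMAD7 moved to -1.18, BAMBI to -0.53 and FST to -0.10. FST was at 0.72 with library totals and passed the threshold. In oocytes the BCB calls, 0, were 1 with DESeq2, and SMAD6 was at -0.028 with the run as a covariate. Between compartments BAMBI was at 0.21 with library totals, 1.51 and -1.81 in BCB positive and BCB negative complexes alone, 1.69 in BCB positive complexes with library totals, 0.71 without complexes 6 and 89, and -0.23 to 0.21 with 1 complex left out. The replicate block by complex put BAMBI at 0.45 and FST at -9.54 and changed no call. SMAD7 in BCB positive complexes was at -0.93, or -0.75 with library totals. Genes called by run were 272 in oocytes (1053 with DESeq2, 160 without a filter, 99 with log10 total, 122 to 578 with 1 complex left out) and 87 in cumulus cells (12 with library totals, 489 with DESeq2, 22 with log10 total, 0 without complexes 6 and 89, 0 to 107 with 1 complex left out). Inside the run from 65 to 74 the cumulus differences on the TMM scale were -1.93 for SMAD6, -0.38 for BAMBI and -0.11 for FST. Library totals gave -1.13 for SMAD6, 0.24 for BAMBI and 0.69 for FST there (exact permutation p = 0.0238 for FST), and 0.030 for SMAD6 in oocytes. With 1 complex left out SMAD6 in oocytes of that run ran from -0.13 to 0.063 and BAMBI from -0.048 to 0.37. Of the weak relations, these changed sign: SMAD6 with BAMBI in oocytes (-0.11) and library total with FST (-0.050) without complexes 6 and 89, and markers with SMAD6 in oocytes (0.0045) and library total with BAMBI (0.026) with library totals, and, without the 2 complexes farthest from the median, SMAD6 (0.090) and FST (-0.043) in oocytes with the same gene in cumulus cells, SMAD6 with BAMBI (-0.31) in oocytes and markers with SMAD7 (-0.24). Of 281 results under the alternatives that left out no single complex, 230 kept their direction and side of the threshold (or, for counts and values without a test, stayed near the main value), 20 counts or untested values moved further, 13 no longer passed the threshold, 4 newly passed it and 14 changed sign; the causes were not tested. A filter of 2 CPM in all libraries left no value for SMAD7 and BAMBI in cumulus cells and FST in oocytes, and DESeq2 gave no p for BAMBI by run in cumulus cells. Depth limits the lowest values of SMAD7 in cumulus cells and of FST in oocytes, which rest on 0 or 1 count.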
